A study of Macaca mulatta with 34 samples.

Results

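Deep cerebellar nuclei (DCN) of rhesus macaques given AAV.miS1 were compared with DCN of macaques given Vehicle, in the 10 total RNA libraries of Study 1 out of 34 libraries in the series. AAV.miS1 is an adeno-associated virus vector (rAAV2/1) that carries an artificial microRNA, and 6 libraries had the label AAV.miS1 and 4 the label Vehicle. Both agents were injected into the DCN under magnetic resonance guidance, so animals of both groups share the injection itself. Study 1 was made to find what lay behind the toxicity seen after this vector was given. Every library has its own animal identifier in the labels. The sources used here give no age, sex, vector dose or time between injection and tissue collection. Replicates are numbered 1 to 6 with AAV.miS1 and 1 to 4 with vehicle in accession order, and the numbers pair no animals.

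The DCN hold the large projection neurons through which the cerebellum sends out its signals, together with inhibitory neurons, glia and the incoming axons of Purkinje cells. Purkinje and granule cells themselves lie in the cerebellar cortex, so their transcripts reach a DCN sample with neighbouring tissue. ATXN1, the gene mutated in spinocerebellar ataxia type 1, encodes a transcriptional regulator that works with the repressor capicua, and artificial microRNAs lower such a transcript by base pairing with it. Injury or infection of the brain activates its microglia and astrocytes and draws leukocytes from the blood. In bulk RNA, fewer cells of a type and less RNA per cell cannot be told apart.

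Counts per gene on the sense strand totalled 2049685 to 4810852 in AAV.miS1 libraries and 2270423 to 3439609 in 3 vehicle libraries, while vehicle replicate 2 held 87741. A single read is worth 10.4 CPM in that library (the usual scaling of counts to library size, here by trimmed mean of M values) and at most 0.477 CPM in the other 9. Unmapped reads made up 9.23% in AAV.miS1 replicate 1, 11.7% to 11.9% in replicates 2 and 3 and a similar share in replicate 4, and 9.56% in vehicle replicate 1. They made up 19.8% and 21.3% in AAV.miS1 replicates 5 and 6 and 24.3% to 31.4% in vehicle replicates 2 to 4, so the libraries form 2 sets on either side of 15%. This split runs partly with the treatment, and its part in the results was not tested beyond the values given beside them. The defining markers of the tissue were present with vehicle: SLC17A6, the vesicular glutamate transporter of DCN projection neurons, stood at 119.9, 72.7, 104 and 187 CPM, NEFH, a neurofilament subunit of large neurons, at 390.4, 249, 382 and 698 CPM, and MBP of myelin at 16259, 23220.4, 14352 and 16940.1 CPM. TTR of the choroid plexus stood at 2.19, 0.78, 2.14, 103, 27.6 and 17.7 CPM with AAV.miS1 and at 0, 20.8, 4.78 and 39.1 CPM with vehicle.

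Vector sequence and ATXN1 both followed the labels, and the libraries differed in each. Vector reads (RPM, reads on either strand relative to gene reads) were 22.2, 548, 107, 100.5, 24.0 and 28.9 in AAV.miS1 replicates 1 to 6, against 0.816, 11.3, 6.71 and 0.337 in vehicle replicates 1 to 4. The lowest AAV.miS1 value exceeded the highest vehicle value (p = 0.00952 in a two-sided exact permutation test of log2 RPM, the smallest this design gives). The 11.3 RPM of vehicle replicate 2 is 1 read. Of the vector reads in AAV.miS1 libraries, 67.6% to 90.1% lay on the strand opposite to that of the gene counts. ATXN1 was 90.2, 54.1, 54.8, 61.9, 61.6 and 49.6 CPM in AAV.miS1 replicates 1 to 6, against 98.7, 104, 92.5 and 91.2 CPM in vehicle replicates 1 to 4. The groups did not overlap (p = 0.00952, two-sided exact permutation test), while in the fit across all genes its log2 fold change of -0.62 (SE 0.18) had an edgeR adjusted p of 0.0604. ATXN1 was least lowered in AAV.miS1 replicate 1, and leaving this library out gave -0.75 (edgeR adjusted p = 0.0208). Its 22.2 vector RPM was the least of the group, but the counting interval overlapped those of replicates 5 and 6. AAV.miS1 replicate 2 had the most vector reads, and its ATXN1 of 54.1 CPM lay beside the 49.6 CPM of replicate 6, which had 28.9 vector RPM.

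The genes called by edgeR were nearly all rises. Of 13383 genes tested, 1004 (7.5%) were called, and 966 (7.22%) rose and 38 (0.284%) fell with AAV.miS1 at an edgeR adjusted p below 0.05. The rises had a median log2 fold change of 2.57, and 929 of them were above 1, 375 above 3 and 75 above 5. The falls were small beside them, from -2.46 to -0.56 with a median of -0.96. All 6 AAV.miS1 libraries were above all 4 vehicle libraries for 1000 genes (7.47%) and below them for 386 (2.88%). Without AAV.miS1 replicate 5 these counts were 1921 and 894, and without vehicle replicate 2 they were 1528 and 853. Of the 386 lower genes, 31 were called as falls and 355 were not. Of the 320 called rises whose groups overlapped, 205 overlapped through vehicle replicate 2 alone, the library of 87741 counts. With sample quality weights in limma voom, the split was 2409 up and 1778 down, and DESeq2 called 1679 up and 114 down.

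The number of calls rested on single libraries, while directions did not. Without vehicle replicates 1, 2, 3 or 4 edgeR called 1, 2, 0 and 2 genes (2583 at an unadjusted p below 0.05 for the 0), and 3 without AAV.miS1 replicate 4. CHI3L1 and EGR3 were called without vehicle replicates 2 or 4, CHI3L1 alone without vehicle replicate 1, and CHI3L1, EGR3 and SERPING1 without AAV.miS1 replicate 4. Every other edgeR call given below is lost in those fits. The count was 505 and 556 without AAV.miS1 replicates 2 and 3, and 2300 without replicate 5. DESeq2 without vehicle replicate 2 called 1993 genes. All 1004 called genes kept their direction in every alternative in which they were tested, and 69 of them, all rises, were also called both within the libraries over 15% unmapped and with the unmapped set as a covariate. Of these 69 genes, 28 were in a gene list used here and 41 in none, beside 207 and 759 of all 966 rises. The lists hold 779 different genes beside 13383 tested, so most genes tested are in none.

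Among the falls, 3 genes of sterol synthesis, SREBF2, HMGCS1 and SQLE, were lower in every AAV.miS1 library than in any vehicle library. SREBF2, the transcription factor that switches on cholesterol synthesis, was 118, 170.1, 153, 132, 252 and 147 CPM in AAV.miS1 replicates 1 to 6, against 336, 259.6, 300.3 and 284 CPM in vehicle replicates 1 to 4 (log2 fold change -0.87, SE 0.21, edgeR adjusted p = 0.0344). HMGCS1, an early enzyme of the pathway, was 23.7 to 59.9 CPM with AAV.miS1 (median 38.6) against 88.7, 62.3, 81.0 and 103 CPM with vehicle. SQLE, the squalene epoxidase, was 4.39 to 19.1 CPM with AAV.miS1 (median 11.5) against 31.6, 51.9, 25.6 and 24.9 CPM with vehicle. AAV.miS1 replicate 5 came closest to the vehicle libraries for SREBF2. The pathway as listed had 3 falls and no rise among 22 genes tested, beside 0.284% of all genes that fell, with a median log2 fold change of -0.55 beside 0.02 over all genes. Of the 22, 17 were below 0 and 5 above. The pathway had 5 genes without overlap on the low side and 1 on the high side, beside 2.88% and 7.47% of all genes. Its summed level was 1048, 1102, 1349, 1171, 2051 and 1511 CPM in AAV.miS1 replicates 1 to 6, against 1989, 1942, 1996 and 2113 CPM in vehicle replicates 1 to 4, so replicate 5 stood within the vehicle range and the other AAV.miS1 libraries below it. ABCA8, a lipid transporter of myelinating cells, fell as well, to 149 ± 49.1 CPM with AAV.miS1 against 307 ± 49.4 CPM with vehicle (-1.03, SE 0.25, edgeR adjusted p = 0.0354). Myelin genes had no call either way among 17 tested, although all 17 had a log2 fold change below 0, as 48.7% of all genes tested had. Their median was -0.60, and their sums were 14479.5 to 32598 CPM with AAV.miS1 and 29276 to 41840.4 CPM with vehicle.

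CACNA1B, CAMK2B, INPP5A, MAP6D1 and PSD3, genes with known roles in neurons, fell. CACNA1B, the pore subunit of the N-type calcium channel that triggers transmitter release, was 8.29, 24.7, 14.2, 8.89, 26.5 and 16.7 CPM in AAV.miS1 replicates 1 to 6, against 37.7, 93.5, 57.7 and 26.9 CPM in vehicle replicates 1 to 4 (-1.51, SE 0.41, edgeR adjusted p = 0.0499). INPP5A, a phosphatase that ends inositol trisphosphate signals and is abundant in Purkinje cells, was 46.7 ± 7.74 CPM with AAV.miS1 against 74.7 ± 14.5 CPM with vehicle (-0.72). MAP6D1, which stabilises microtubules, was 84.4 ± 18.3 CPM with AAV.miS1 against 156 ± 27.9 CPM with vehicle (-0.86), and PSD3, an exchange factor for the small GTPase ARF6, was 139 ± 28.6 CPM with AAV.miS1 against 239 ± 42.8 CPM with vehicle (-0.77). CAMK2B, the beta subunit of the calcium/calmodulin-dependent kinase of synapses, was 41.7 to 103 CPM with AAV.miS1 (median 80.0) against 161, 135, 155 and 128 CPM with vehicle. In each of these 5 genes all AAV.miS1 libraries were below all vehicle libraries. Of the 21 genes listed for synaptic vesicles and CaMKII, CAMK2B was the only one called, and of 18 ion channel genes CACNA1B was, beside 0.284% of all genes called as falls.

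The falls of CALB1, SLC1A6 and BARHL1 were larger and rested on fewer reads. CALB1, a calcium buffer of Purkinje cells, was 1.46, 20.5, 7.83, 7.27, 10.6 and 15.3 CPM in AAV.miS1 replicates 1 to 6, against 38.5, 31.2, 80.4 and 21.9 CPM in vehicle replicates 1 to 4, with no overlap (-2.11, SE 0.56, edgeR adjusted p = 0.0467). BARHL1, a homeobox factor of the granule cell lineage, was 0.244, 4.16, 2.49, 1.62, 2.04 and 2.39 CPM in AAV.miS1 replicates 1 to 6, against 17.7, 10.4, 15.5 and 2.98 CPM in vehicle replicates 1 to 4 (-2.46, SE 0.61, edgeR adjusted p = 0.0377), with AAV.miS1 replicate 2 above vehicle replicate 4. Of 22 Purkinje genes 3 fell, beside 0.284% of all genes, among them CALB1 and SLC1A6. SLC1A6, a glutamate transporter, was 0.732, 6.5, 1.42, 1.62, 5.79 and 4.77 CPM with AAV.miS1 and 19.0, 20.8, 27.8 and 6.3 CPM with vehicle. Of 19 granule cell genes, a list that does not hold BARHL1, none was called, beside 0.284% of all genes called as falls. All 19 nevertheless had a log2 fold change below 0, as 48.7% of all genes tested had, with a median of -1.41. Of the 22 Purkinje genes, 21 were below 0, with a median of -1.16. FAT2, an adhesion molecule of granule cells, was 10.00, 431, 27.1, 16.4, 20.4 and 10.0 CPM in AAV.miS1 replicates 1 to 6, against 474, 447, 546 and 9.95 CPM in vehicle replicates 1 to 4. FAT2 in AAV.miS1 replicate 2 thus stood at the level of vehicle replicates 1 to 3, and vehicle replicate 4 at the level of the other AAV.miS1 libraries. GABRA6, the granule cell GABA receptor subunit, ran the same way, at 0.732, 42.7, 2.49, 3.77, 1.7 and 0.955 CPM with AAV.miS1 and 52.8, 31.2, 89.1 and 1.66 CPM with vehicle, so granule cell transcripts moved with the Purkinje genes over part of the libraries, and their part in the Purkinje falls was not tested.

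The other named falls belonged to no list. TP53INP2, a regulator of autophagy, was the highest of them at 474 ± 72.7 CPM with AAV.miS1 against 761 ± 146 CPM with vehicle (-0.68, SE 0.18, edgeR adjusted p = 0.0467). FBXW7, the substrate receptor of a ubiquitin ligase, was 37.3 to 74.4 CPM with AAV.miS1 (median 54.9) against 75.8, 93.5, 111 and 86.9 CPM with vehicle. SNRK, a kinase related to the energy sensor AMPK, was 61.7 to 126 CPM with AAV.miS1 (median 99.1) against 149.8, 177, 163 and 170.1 CPM with vehicle. Neither gene overlapped between the groups. FUT8, the enzyme that adds core fucose to glycoproteins, was 69.2 ± 14.0 CPM with AAV.miS1 against 114 ± 13.8 CPM with vehicle, PTPRB, the receptor phosphatase of endothelial cells, 54.4 ± 11.7 CPM with AAV.miS1 against 90.8 ± 11.1 CPM with vehicle, and SLC2A12, a glucose transporter, 30.7 ± 8.18 CPM with AAV.miS1 against 56.1 ± 3.98 CPM with vehicle. TLE2, a corepressor of the Groucho family, was 11.0 to 35.7 CPM with AAV.miS1 (median 20.1) against 42.0, 51.9, 43.9 and 47.1 CPM with vehicle (-1.11), and GKAP1, an anchor of cyclic GMP-dependent kinase, 4.63 to 11.2 CPM with AAV.miS1 (median 9.39) against 17.3, 20.8, 18.3 and 20.6 CPM with vehicle (-1.12). Among the others called were ELAPOR2, MOB3B, PRR18, FAM222A, ZNF493, ZNF287, THNSL1, DCUN1D5, ITGB1BP1, CNTN4 and LIMS2, with log2 fold changes of -1.14 to -0.56. CNTN4, a contactin of axons, had 0 reads in vehicle replicate 2 and 23.8, 22.2 and 22.2 CPM in vehicle replicates 1, 3 and 4, against 8.05, 9.88, 10.7, 9.16, 9.53 and 9.07 CPM with AAV.miS1. Within the libraries over 15% unmapped, all 38 falls kept a negative log2 fold change, with a median of -0.62, and 1 was called with the unmapped set as a covariate.

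**Figure D1:**
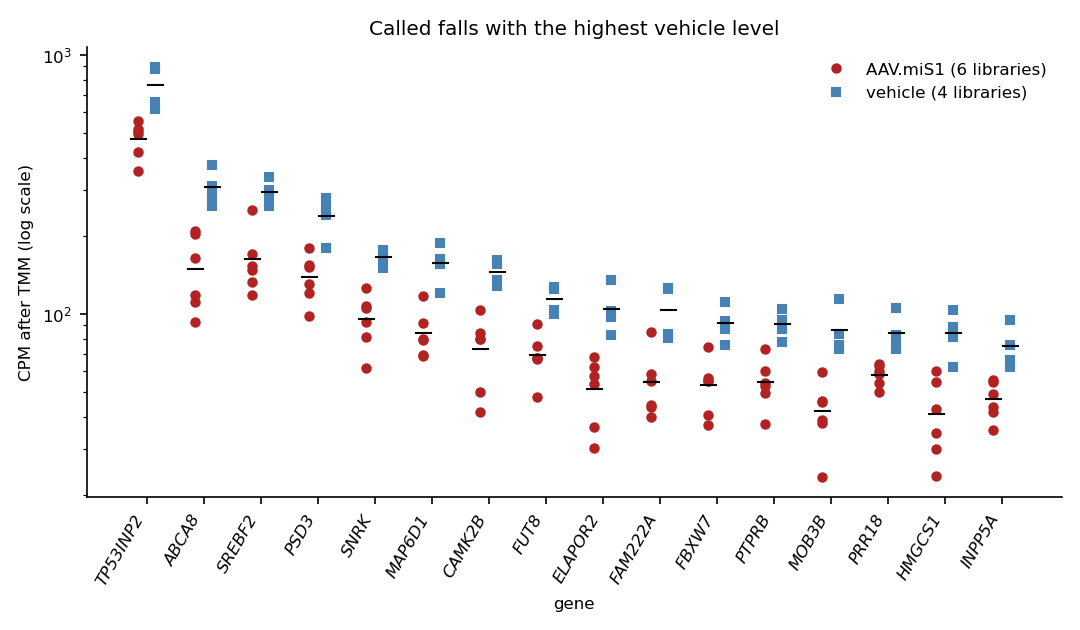
Level in each library, in CPM after scaling on a log axis, of the 16 called falls with a symbol and the highest vehicle mean. Red circles are the 6 AAV.miS1 libraries, blue squares the 4 vehicle libraries and black lines the group means; the groups overlap for FAM222A alone among these genes.

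Among the genes with a symbol that were lower in every AAV.miS1 library, none of the 8 with the largest loss in mean CPM was called. ALDOC, an aldolase of astrocytes and Purkinje cells, was 11.0, 141, 478, 178, 821 and 742 CPM in AAV.miS1 replicates 1 to 6, against 1000.3, 1122, 1177 and 1137 CPM in vehicle replicates 1 to 4 (-1.49, SE 0.77, edgeR adjusted p = 0.234). SLC1A2, the glutamate transporter of astrocytes, was 56.6, 233, 961, 198, 962 and 990.3 CPM in AAV.miS1 replicates 1 to 6, against 1369, 1038, 1369 and 2381 CPM in vehicle replicates 1 to 4, and KCNJ10, their inward rectifier potassium channel, was 259, 647, 766, 449, 1034 and 875 CPM in AAV.miS1 replicates 1 to 6, against 1088, 1122, 1096 and 1601 CPM in vehicle replicates 1 to 4. GPM6B, a membrane protein of myelin and neurons, was 1414 ± 552 CPM with AAV.miS1 against 2583 ± 224 CPM with vehicle (edgeR adjusted p = 0.0985). All 6 AAV.miS1 libraries lay below all vehicle libraries for each of the 4, yet within the group the highest ALDOC library held 74.8 times the level of the lowest, and for SLC1A2 17.5 times. The other genes of largest loss, ANK3, NDRG1, ANLN and SCD, were also without overlap and without a call (edgeR adjusted p = 0.0918 to 0.168). SCD, a desaturase of fatty acids, was the most even of them, at 1056, 966, 1033, 1072, 1181 and 896 CPM with AAV.miS1 and 1229, 1506, 1199 and 1405 CPM with vehicle.

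Of the 966 rises, 759 stood in none of the 48 gene lists, as most of the 13383 genes tested do, and 207 stood in a list. Of the 759, the 16 of smallest p with a symbol and at least 5 CPM with AAV.miS1 are described next, those known from leukocytes first. SIGLEC5, a sialic acid-binding receptor of myeloid cells, was 132, 148, 127, 142, 103 and 122 CPM in AAV.miS1 replicates 1 to 6, against 48.5, 41.5, 31.8 and 59.3 CPM in vehicle replicates 1 to 4 (log2 fold change 1.49, SE 0.20, edgeR adjusted p = 0.0275). CD180, a relative of the Toll-like receptors on B cells and macrophages, was 26.9 to 126 CPM with AAV.miS1 (median 95.5) against 14.3, 20.8, 9.00 and 8.62 CPM with vehicle (3.01). OLR1, the receptor for oxidised low-density lipoprotein, was 58.5 to 226 CPM with AAV.miS1 (median 196) against 27.3, 51.9, 21.9 and 27.8 CPM with vehicle (2.57). None of the 3 overlapped between the groups. SIGLEC5 has near-identical relatives, so its reads may be shared with them. RGS1, which damps G protein signals in leukocytes, was 13.6 to 60.7 CPM with AAV.miS1 (median 38.2) against 2.16, 10.4, 3.66 and 4.97 CPM with vehicle (3.28), TAGAP, a GTPase-activating protein of activated T cells, 28.3 to 127 CPM with AAV.miS1 (median 70.0) against 12.1, 10.4, 11.8 and 10.9 CPM with vehicle (2.66), and IKBKE, a kinase of the antiviral response, 4.42 to 27.3 CPM with AAV.miS1 (median 13.2) against 0, 0, 0.844 and 0.332 CPM with vehicle (4.97). IL2RB, a receptor chain for interleukins of T and natural killer cells, was 72.4, 67.9, 14.2, 44.7, 4.77 and 40.1 CPM with AAV.miS1 and had 3 reads in all vehicle libraries together, a pooled ratio of 132-fold (95% counting interval 45.1 to 643).

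ZFP36, which destabilises messenger RNAs of cytokines, was 227, 277, 113, 164, 91.2 and 97.4 CPM in AAV.miS1 replicates 1 to 6, against 32.0, 31.2, 29.0 and 32.2 CPM in vehicle replicates 1 to 4 (2.38, SE 0.37, edgeR adjusted p = 0.0275). IL33, an alarmin stored in the nuclei of glia and barrier cells, was 82.9, 54.6, 40.2, 82.1, 47.0 and 50.6 CPM in AAV.miS1 replicates 1 to 6, against 6.93, 10.4, 20.8 and 10.3 CPM in vehicle replicates 1 to 4 (2.23). MARCKS, an actin-binding substrate of protein kinase C, was 199 to 393 CPM with AAV.miS1 (median 286) against 129, 72.7, 95.3 and 113 CPM with vehicle (1.49), and RHOBTB2, an adaptor of a ubiquitin ligase, 61.9 to 141 CPM with AAV.miS1 (median 97.7) against 39.0, 41.5, 29.5 and 31.2 CPM with vehicle (1.54). TRPV4, a calcium channel opened by stretch and warmth, was 10.2 to 115 CPM with AAV.miS1 (median 61.5) against 3.46, 0, 2.81 and 1.99 CPM with vehicle (4.39). SLC17A9, the vesicular transporter of ATP, was 6.47 to 32.9 CPM with AAV.miS1 (median 18.7) against 1.3, 0, 1.41 and 0.663 CPM with vehicle (3.94), and GGT5, an enzyme of glutathione and leukotriene breakdown, 16.2 to 29.6 CPM with AAV.miS1 (median 26.7) against 7.36, 0, 3.66 and 6.63 CPM with vehicle (2.11). CHRNB4, a nicotinic acetylcholine receptor subunit, was 4.15, 9.36, 11.0, 13.2, 4.08 and 3.82 CPM with AAV.miS1 and had 1 read in vehicle, a pooled ratio of 70.4-fold (95% counting interval 12.5 to 2800.3). APOL6, one of a family of near-identical apolipoprotein L genes, was 8.17 to 92.1 CPM with AAV.miS1 (median 37.6) against 1.3, 0, 1.41 and 1.99 CPM with vehicle (4.79). For all 16 genes chosen by this rule the groups did not overlap. TNC, an extracellular glycoprotein of reactive astrocytes, was picked after its values were seen, because its difference was as large within the libraries over 15% unmapped (2.41) as over all 10 (2.02). It was 107, 168, 307, 242, 195 and 142 CPM in AAV.miS1 replicates 1 to 6, against 78.8, 62.3, 35.2 and 24.5 CPM in vehicle replicates 1 to 4.

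The called rises ranged from even to very uneven over the AAV.miS1 animals. Over the 848 called rises that have a symbol and average 10 CPM or more with AAV.miS1, the SD of log2 CPM between libraries had a median of 0.948 with AAV.miS1. For the same 848 genes the median was 0.598 with vehicle. Over all genes tested it was 0.430 with AAV.miS1 and 0.443 with vehicle. The SD with AAV.miS1 was below 0.5 for 90 of the 848 rises, above 1 for 381 and above 2 for 20. The most even were modest in size. GAB2, an adaptor that docks signalling enzymes at receptors, was 246, 267, 247, 277, 213 and 239 CPM in AAV.miS1 replicates 1 to 6, against 173, 177, 174 and 181 CPM in vehicle replicates 1 to 4 (0.49, SE 0.13, edgeR adjusted p = 0.0422). WFS1, a membrane protein of the endoplasmic reticulum, was 272, 255, 249.5, 243, 208 and 196 CPM in AAV.miS1 replicates 1 to 6, against 132, 125, 154 and 175 CPM in vehicle replicates 1 to 4 (0.68). HIRA, a chaperone of histone H3.3, was 55.1 to 76.7 CPM with AAV.miS1 (median 57.5) against 32.5, 41.5, 36.8 and 38.1 CPM with vehicle (0.76), and PFKFB2, which sets the level of a regulator of glycolysis, 69.2 to 93.4 CPM with AAV.miS1 (median 79.4) against 49.8, 31.2, 54.8 and 57.0 CPM with vehicle (0.65). LMF2, PGAP6 and NPEPL1 had log2 fold changes of 0.65, 0.79 and 0.81. With SIGLEC5 these are the 8 most even rises, and the groups overlapped for none of them.

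Apart from RARRES1, the most uneven rises were genes of secreted and surface proteins known from macrophages, plasma cells and natural killer cells. CHIT1, the chitinase of lipid-laden macrophages, was 8884, 746, 2333, 8691, 142 and 1015 CPM in AAV.miS1 replicates 1 to 6, against 7.36, 239, 18.0 and 3.98 CPM in vehicle replicates 1 to 4. ADAMDEC1, a metalloprotease of macrophages, was 1007, 39.8, 70.1, 539, 4.42 and 18.6 CPM in AAV.miS1 replicates 1 to 6, against 0.866, 0, 2.25 and 0 CPM in vehicle replicates 1 to 4. JCHAIN, which joins the antibodies that plasma cells secrete, was 606, 259, 47.0, 1489, 6.81 and 50.1 CPM in AAV.miS1 replicates 1 to 6, against 2.16, 41.5, 3.94 and 1.99 CPM in vehicle replicates 1 to 4, highest in replicate 4 and not in replicate 1. LYZ, the lysozyme of phagocytes, was 2159, 566, 249, 1352, 19.4 and 152 CPM in AAV.miS1 replicates 1 to 6, against 3.9, 114, 14.9 and 7.96 CPM in vehicle replicates 1 to 4. For CHIT1, JCHAIN and LYZ, AAV.miS1 replicate 5 lay below vehicle replicate 2, and for all 4 genes replicates 1 and 4 held the highest levels. RARRES1 was 2.72 to 196 CPM with AAV.miS1 (median 38.7) against 1.3, 10.4, 0.281 and 0.663 CPM with vehicle. MMP9, a matrix protease of neutrophils and macrophages, was 684, 8.58, 46.3, 138, 2.04 and 22.4 CPM with AAV.miS1 and had 1 read in vehicle, a pooled ratio of 1628-fold (95% counting interval 292 to 64320.4), and CR1, a complement receptor, was 209, 10.4, 29.5, 78.9, 0.681 and 6.68 CPM with 2 reads in vehicle, a pooled ratio of 297-fold (95% counting interval 82.0 to 2453). KIR3DL12 belongs to a family of near-identical receptors of natural killer cells and was 0 to 64.4 CPM with AAV.miS1 (median 23.6) against 1.3, 0, 0 and 0.663 CPM with vehicle. The highest AAV.miS1 library held 228 times the ADAMDEC1 of the lowest, whereas for GAB2 that ratio was 1.3.

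**Figure D2:**
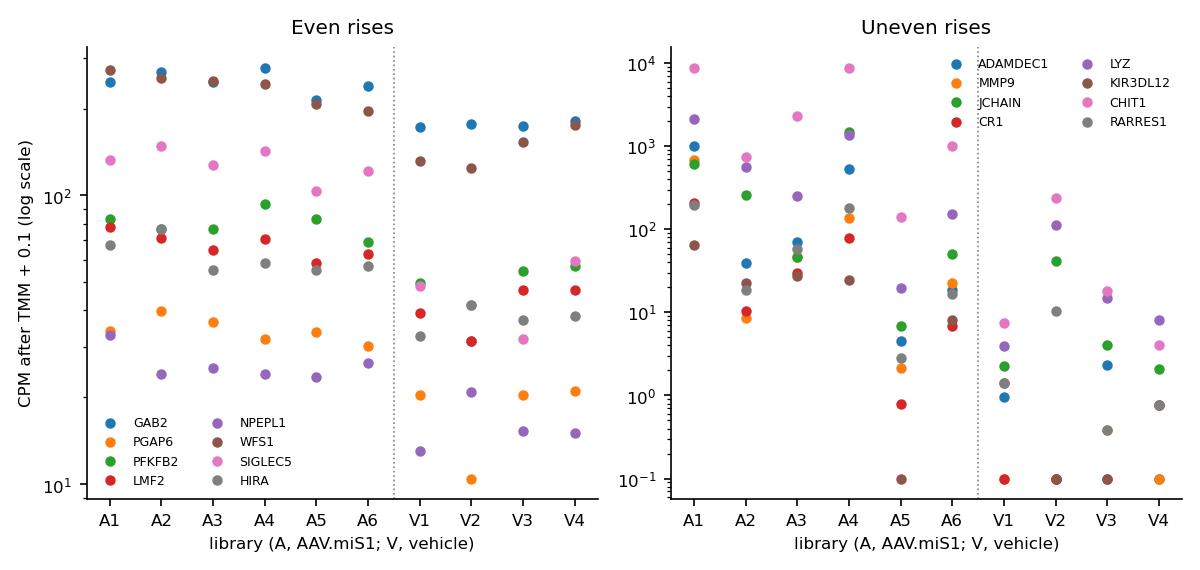
Level in each library, in CPM after scaling plus 0.1 on a log axis, of the 8 called rises with the smallest (left panel) and the 8 with the largest (right panel) SD of log2 CPM over the 6 AAV.miS1 libraries (A1 to A6; V1 to V4 are vehicle). In the left panel the AAV.miS1 points of a gene lie close together, and in the right panel A1 and A4 stand high and A5 low.

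The 8 called rises with the largest gain in mean CPM were CTSB, CTSD, CD74, CHIT1, B2M, APOE, PZP and MAMU-DRA, and 2 lysosomal proteases came first. CTSB, a lysosomal protease, was 13528, 3098, 8455, 9416, 902 and 1748 CPM in AAV.miS1 replicates 1 to 6, against 468, 789, 427 and 469 CPM in vehicle replicates 1 to 4 (3.54, SE 0.76, edgeR adjusted p = 0.0279). CTSD, the aspartic protease of lysosomes, was 13008, 1845, 4422, 5811, 617 and 1096 CPM in AAV.miS1 replicates 1 to 6, against 496, 758, 416 and 477 CPM in vehicle replicates 1 to 4 (3.07), with replicate 5 inside the vehicle range. APOE, the lipid carrier of glia and macrophages, was 764 to 7108 CPM with AAV.miS1 (median 2406) against 371, 592, 382 and 470.1 CPM with vehicle (2.77), and PZP, a protease-trapping protein with near-identical relatives, 698 to 4333 CPM with AAV.miS1 (median 2446) against 464, 436, 443 and 347 CPM with vehicle. MAMU-DRA, a chain of MHC class II, was 4582, 2159, 605, 2912, 154 and 1020.4 CPM in AAV.miS1 replicates 1 to 6, against 70.6, 280.4, 52.9 and 69.3 CPM in vehicle replicates 1 to 4, and vehicle replicate 2 again lay above AAV.miS1 replicate 5. Of 23 lysosome genes 14 rose, beside 7.22% of all genes, with a median log2 fold change of 2.65 beside 0.02 over all genes tested, and their summed level was 51829, 12084, 23631, 32459, 5397 and 8154 CPM in AAV.miS1 replicates 1 to 6, against 4475, 5327, 3919 and 4151 CPM in vehicle replicates 1 to 4.

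Beyond the immune genes, many genes of cell division, matrix and stimulation rose. The lists below are read beside the 7.22% of all genes that rose. Lists of heat shock, glycolysis, vessel walls and respiration had at most 1 rise each, counts too small to set apart from that share. Cell division had 8 rises among 17 genes tested (median 1.47), with TOP2A, the topoisomerase of dividing cells, at 23.2, 33.3, 17.4, 13.5, 3.74 and 3.34 CPM with AAV.miS1 and 0, 0, 0.844 and 0.995 CPM with vehicle. Targets of p53 had 6 of 18 (median 1.44), with all 18 above 0 beside 51.3% of all genes tested. Among the 6 rises was EDA2R, a death receptor, at 7.07, 23.7, 9.97, 6.73, 3.4 and 8.11 CPM with AAV.miS1 and 1.73, 0, 0.562 and 0.663 CPM with vehicle. Immediate early genes, which respond within minutes to stimulation, had 9 of 12 (median 2.26). EGR3, one of them, was 52.7, 30.9, 28.5, 49.0, 19.4 and 18.1 CPM in AAV.miS1 replicates 1 to 6, against 0.866, 0, 0.562 and 1.33 CPM in vehicle replicates 1 to 4 (5.15, SE 0.53, edgeR adjusted p = 0.00561), the smallest adjusted p of the comparison together with CHI3L1. Extracellular matrix had 12 of 19 (median 2.75), among them TIMP1, an inhibitor of matrix proteases, and MMP14, a membrane-bound matrix protease (2.75 and 4.13). Of 7 meningeal genes 2 rose, COL1A1 and COL1A2 of fibrillar collagen (5.29 and 4.16), and the summed level of the 7 was 1485, 642, 826, 1653, 1029.7 and 808 CPM in AAV.miS1 replicates 1 to 6, against 982, 1215, 929 and 1037 CPM in vehicle replicates 1 to 4. The list's median over the vehicle mean was 4.08 in replicate 1 and 3.06 in replicate 4, on the log2 scale, and the part of the meninges in the matrix rises was not tested.

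Iron and heme genes had 3 rises among 10: CP, the copper enzyme that oxidises iron, SLC11A1, the metal transporter of phagosomes, and HMOX1, which breaks down heme (log2 fold change 4.73 for CP and 2.76 for HMOX1). CP was 239 ± 145 CPM with AAV.miS1 against 7.1 ± 5.44 CPM with vehicle, without overlap. Feedback genes of NF-kB had 5 rises of 11 and cell death genes 4 of 12, and the oxidase of phagocytes 5 of 5. Ribosomal proteins had 3 of 15 (RPLP1, RPL13 and RPS9, 1.13, 1.11 and 1.13), many of whose genes have near-identical copies. The unfolded protein and integrated stress list had 1 of 13, PPP1R15A, which restarts protein synthesis after stress (2.15). Glycolysis and hypoxia had 1 of 11, HK2, an inducible hexokinase, at 79.0, 90.2, 49.8, 75.9, 26.9 and 38.2 CPM with AAV.miS1 and 22.5, 0, 17.4 and 19.2 CPM with vehicle. Endothelium and adhesion also had 1 of 11, ICAM1, which binds leukocytes. None of 10 heat shock genes was called (median 0.05), nor any of 10 of pericytes and smooth muscle (median -0.18), of 24 of the respiratory chain (median -0.33) or of 10 of ATXN1 and capicua (median 0.01).

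**Figure D3:**
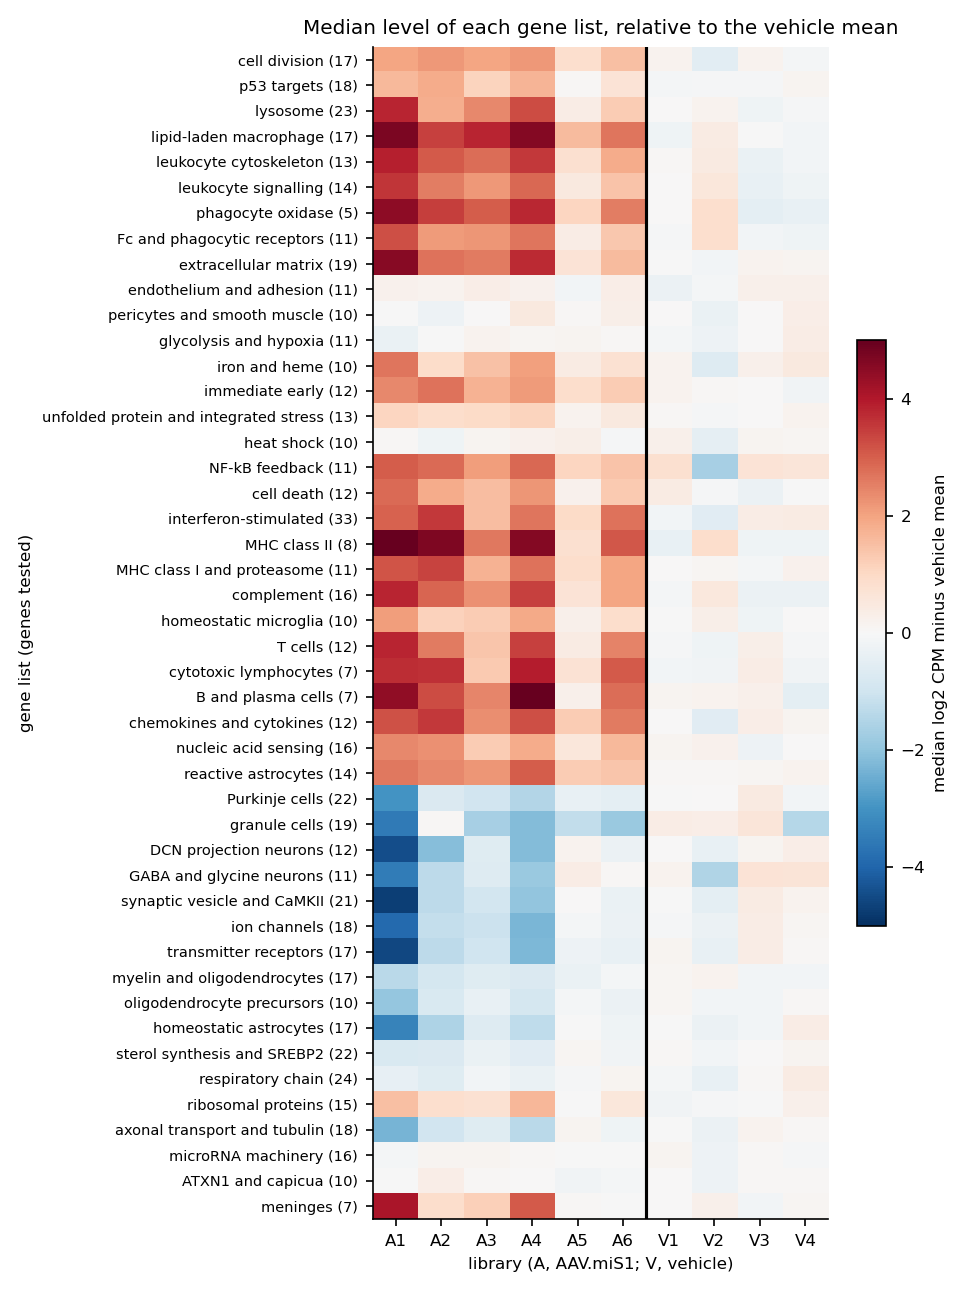
Median over the genes of each list of log2 CPM minus the vehicle mean, in each AAV.miS1 (A1 to A6) and vehicle (V1 to V4) library; the number of genes tested stands in brackets and lists with fewer than 5 are left out. Red is above and blue below the vehicle mean; A1 and A4 are the most changed columns and A5 the least.

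The size of the response was graded over the AAV.miS1 animals. Over the 966 called rises the median log2 level above the vehicle mean was 3.34 in replicate 1, 2.96 in replicate 4, 2.63 in replicate 2, 2.25 in replicate 3, 1.69 in replicate 6 and 0.83 in replicate 5, against -0.12 to 0.07 in vehicle libraries. Replicate 1 held the highest level of 675 of these genes (69.9%) and replicate 5 the lowest of 822 (85.1%). Replicate 5 was still above every vehicle library for 658 of the 966, and replicate 6 for 899. The 38 falls and the 386 genes without overlap on the low side ran in the mirror order: replicate 1 was lowest for 286 of the 386 and replicate 5 highest for 191. Because the called genes were selected on these libraries, this order describes them and is no separate test. Replicates 5 and 6, with the smallest response, are also the AAV.miS1 libraries over 15% unmapped, and the animal, the library and its mapping cannot be told apart.

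SNAP25, NEFH, SLC17A6 and PVALB were each lowest in replicate 1 and within the vehicle range in replicates 5 and 6. SNAP25, a synaptic vesicle fusion protein of neurons in general, was 8.05, 272, 335, 152, 829 and 673 CPM in AAV.miS1 replicates 1 to 6, against 759.7, 654, 1044 and 897 CPM in vehicle replicates 1 to 4. NEFH was 1.46, 34.9, 326, 69.2, 669 and 389 CPM in AAV.miS1 replicates 1 to 6, against 390.4, 249, 382 and 698 CPM in vehicle replicates 1 to 4, and SLC17A6 was 0, 15.6, 66.6, 31.2, 138 and 136 CPM in AAV.miS1 replicates 1 to 6, against 119.9, 72.7, 104 and 187 CPM in vehicle replicates 1 to 4. PVALB, a calcium buffer of DCN and Purkinje neurons, was 0.732, 36.7, 134, 39.6, 257 and 202 CPM in AAV.miS1 replicates 1 to 6, against 174, 218, 282 and 327 CPM in vehicle replicates 1 to 4. None of these genes was called (edgeR adjusted p = 0.34 to 0.606). Within the libraries over 15% unmapped the log2 fold change was -0.23 for SNAP25, 0.01 for SLC17A6 and 0.17 for NEFH, beside -1.96 for CALB1 and -2.08 for BARHL1. Summed over 21 genes, synaptic vesicle and CaMKII transcripts were 232, 1772, 2134, 989, 4366 and 3417 CPM in AAV.miS1 replicates 1 to 6, against 4180.1, 3147, 5643 and 4736 CPM in vehicle replicates 1 to 4. The 12 genes of DCN projection neurons summed to 127, 585, 2626, 924, 4661 and 3778 CPM in AAV.miS1 replicates 1 to 6, against 3756, 2638, 3811 and 5355 CPM in vehicle replicates 1 to 4. All 12 had a log2 fold change below 0, as 48.7% of all genes tested had, with a median of -0.94. None was called, beside 0.284% of all genes called as falls. Replicates 1, 2 and 4 held the least of both lists. MBP, by contrast, was 6097, 9390.1, 11790.4, 7949, 14890.4 and 15739 CPM in AAV.miS1 replicates 1 to 6, against 16259, 23220.4, 14352 and 16940.1 CPM in vehicle replicates 1 to 4, so replicate 1 kept more of its myelin transcripts than of its neuronal ones relative to vehicle.

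Replicate 2 differed from the common order. It held the highest level of 15 of the 19 interferon-stimulated rises, 7 of 8 of cell division, 4 of 6 p53 targets and 6 of 10 of MHC class I and the proteasome, but of none of the 14 lysosome rises, none of the 12 of the leukocyte cytoskeleton and none of the 13 of lipid-laden macrophages. Over all 966 rises it was highest for 164. MX1, an antiviral protein induced by interferon, was 61.5, 398, 44.9, 72.7, 72.2 and 147 CPM in AAV.miS1 replicates 1 to 6, against 12.1, 20.8, 23.9 and 26.9 CPM in vehicle replicates 1 to 4. OAS2, another, was 152, 403, 48.4, 102, 20.8 and 144 CPM in AAV.miS1 replicates 1 to 6, against 4.76, 0, 13.8 and 13.9 CPM in vehicle replicates 1 to 4. IRF7, the factor that amplifies interferon production, was 21.9, 81.1, 9.61, 12.9, 5.45 and 18.1 CPM in AAV.miS1 replicates 1 to 6, against 0.866, 0, 3.09 and 1.99 CPM in vehicle replicates 1 to 4. CDKN1A, the p53 target that halts the cell cycle, was 82.9, 499, 72.6, 137, 36.4 and 89.2 CPM in AAV.miS1 replicates 1 to 6, against 3.46, 0, 7.03 and 1.66 CPM in vehicle replicates 1 to 4. MKI67, the marker of dividing cells, was 41.7, 99.6, 46.3, 21.3, 8.51 and 14.8 CPM in AAV.miS1 replicates 1 to 6, against 0.866, 31.2, 2.25 and 0.663 CPM in vehicle replicates 1 to 4, and its 31.2 CPM in vehicle replicate 2 is 3 reads. SOCS3, a brake on cytokine signalling, was likewise highest there, at 99.6 CPM, against 4.33 CPM at most with vehicle. These genes, CDKN1A apart, were chosen after their values were seen. Replicate 2 is also the library with 548 vector RPM.

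Replicate 4 shared the top place with replicate 1 for lymphocyte genes. It was highest for 3 of 6 T cell rises, 3 of 6 of cytotoxic lymphocytes and 2 of 3 of B and plasma cells, and for all 3 ribosomal rises. Over all 966 called rises it was highest for 106 (11.0%), and the lists are short. GZMK, a granzyme of T cells, was 19.0, 9.62, 3.56, 32.3, 1.02 and 5.73 CPM with AAV.miS1 and 0, 0, 0.562 and 0 CPM with vehicle. IRF4, a factor of plasma cells and activated lymphocytes, was level between both, at 58.8, 31.2, 6.05, 56.8, 2.38 and 12.9 CPM with AAV.miS1 and 0.866, 0, 1.41 and 0.332 CPM with vehicle. PAX5, the B cell factor, was 5.85, 3.38, 2.85, 8.35, 3.06 and 4.3 CPM with AAV.miS1 and 0.433, 0, 1.41 and 0.995 CPM with vehicle. JCHAIN was highest in replicate 4 as well.

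Of 14 reactive astrocyte genes 9 rose, beside 7.22% of all genes tested, and all 14 were above 0 (median 2.47). Of these 9 rises, 7 were highest in replicate 1 or 4 and 6 lowest in replicate 5. Over all 966 called rises replicate 1 was highest for 69.9% and replicate 4 for 11.0%, and replicate 5 was lowest for 85.1%. A few astrocyte genes departed from that order. GFAP, the filament of astrocytes, was 2087, 9897, 15302, 12573, 20774 and 15562 CPM in AAV.miS1 replicates 1 to 6, against 8668, 8869, 7899.6 and 8193 CPM in vehicle replicates 1 to 4 (edgeR adjusted p = 0.425), above every vehicle library in replicates 2 to 6, highest in the otherwise mildest replicate 5, and below every vehicle library in replicate 1. Its log2 fold change was 0.60, and 0.82 without replicate 1 (edgeR adjusted p = 0.0745). Only 6 of the 13383 genes tested were below every vehicle library in replicate 1 and above every vehicle library in replicates 2 to 6, namely GFAP, MAOB, GDPD2, MATN2, SLC39A14 and PALD1, a pattern chosen after its values were seen. MAOB, the amine oxidase of astrocytes, was 30.7, 153, 224, 168, 225 and 242 CPM in AAV.miS1 replicates 1 to 6, against 101, 114, 119 and 119 CPM in vehicle replicates 1 to 4. CHI3L1, which reactive astrocytes secrete, was 600.4, 602, 769, 816, 464 and 496 CPM with AAV.miS1, against 122, 114, 79.6 and 61.0 CPM with vehicle. VIM, a filament of reactive astrocytes that macrophages and vessels also make, was 4089, 1857, 1909.8, 2609.7, 312 and 539 CPM in AAV.miS1 replicates 1 to 6, against 62.3, 145, 100.4 and 92.2 CPM in vehicle replicates 1 to 4 (4.31) and was highest in replicates 1 and 4 and lowest in replicate 5. P2RY12, a receptor of resting microglia, was 55.6, 77.5, 85.1, 104, 75.9 and 79.2 CPM in AAV.miS1 replicates 1 to 6, against 77.0, 83.1, 66.4 and 88.2 CPM in vehicle replicates 1 to 4 (0.03, edgeR adjusted p = 0.945), while AIF1 of microglia and macrophages rose (2.74). Of 17 homeostatic astrocyte genes none was called, beside 0.284% of all genes called as falls. Their median was -0.84, with sums of 3108 to 15126 CPM with AAV.miS1 and 12482 to 20562 CPM with vehicle.

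**Figure D4:**
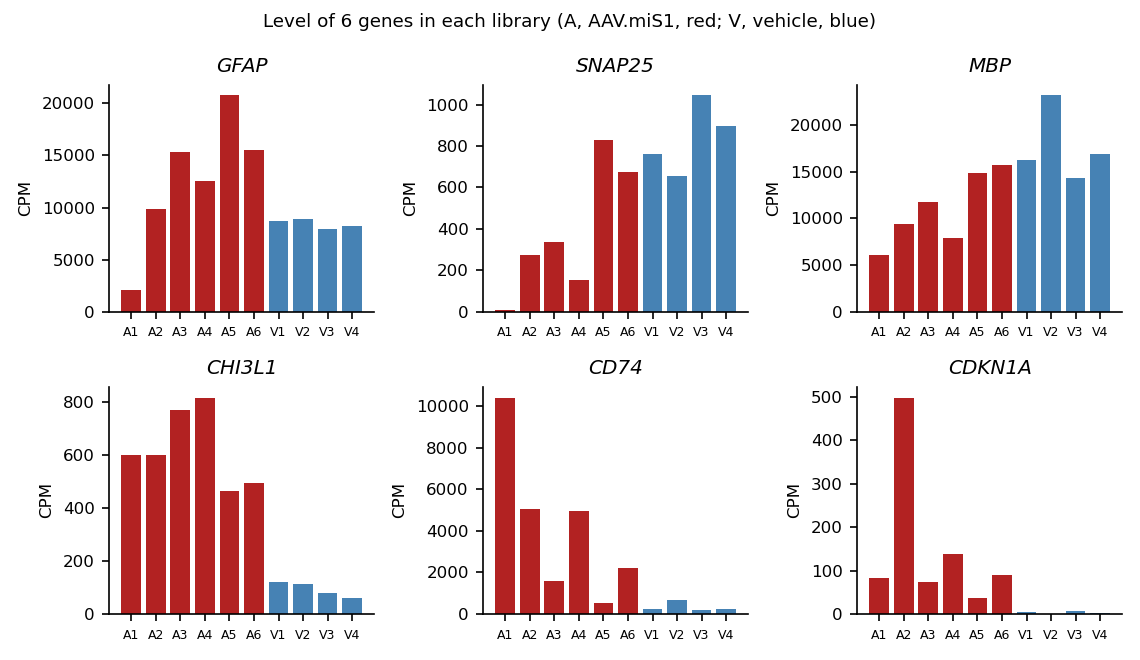
Level in each library, in CPM after scaling on linear axes that start at 0, of an astrocyte gene (GFAP), a neuronal gene (SNAP25), a myelin gene (MBP) and 3 rises (CHI3L1, CD74, CDKN1A). AAV.miS1 libraries A1 to A6 are red and vehicle libraries V1 to V4 blue; GFAP is lowest and SNAP25 nearly absent in A1, and CDKN1A is highest in A2.

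The order of the response was not the order of vector reads. Replicate 1 had the strongest response with the lowest vector level of its group, 22.2 RPM, and replicate 5 the weakest with 24.0 RPM. A slope on log2 vector RPM was fitted for 11056 genes over the 6 AAV.miS1 libraries, and edgeR called 0 of them (0%; 332 at an unadjusted p below 0.05, smallest adjusted p 0.865). Limma voom with quality weights also called 0, with 1506 at an unadjusted p below 0.05. The genes of smallest p on the rising side were DES, a muscle filament, EPHA2, a receptor kinase, and GADD45A, a stress and p53 target, with slopes of 0.57, 0.52 and 0.45 log2 units for each doubling of vector RPM. GADD45A was 11.2, 46.8, 19.2, 13.7, 10.6 and 10.5 CPM in AAV.miS1 replicates 1 to 6. SMAD9, a transducer of bone morphogenetic protein signals, led the falling side with -0.53. Without replicate 2, the library of 548 vector RPM, the slope was 0.28 for GADD45A and -0.49 for SMAD9. Over all genes, without it 65 had an unadjusted p below 0.05, and without replicate 1, which pairs few vector reads with the strongest response, 2151. With 6 libraries and 1 of them far above the others in vector reads, a slope on vector reads was not detectable for single genes at this size.

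**Figure D5:**
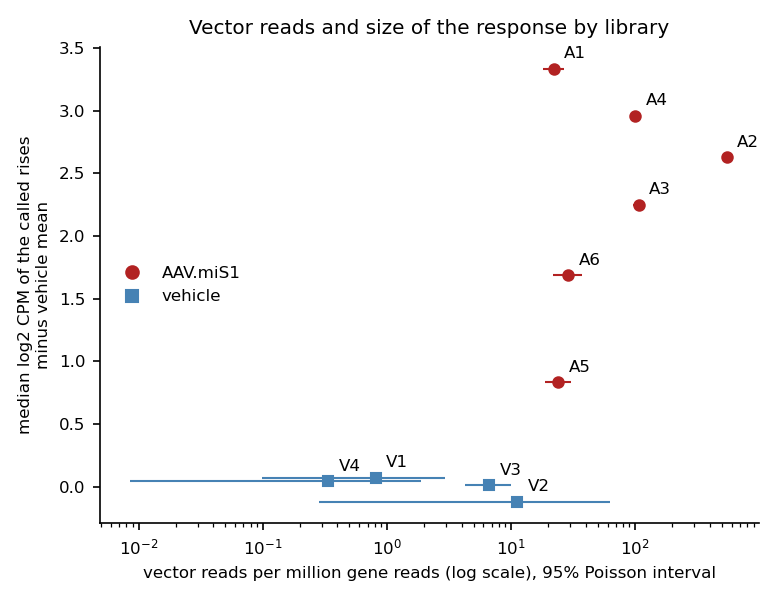
Vector RPM (log axis, with 95% Poisson intervals that cover counting error only) against the median over the 966 called rises of log2 CPM minus the vehicle mean, for each AAV.miS1 (A) and vehicle (V) library. A1 has the highest response at 22.2 RPM, and A2 with 548 RPM has a lower response than A1 and A4.

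Some called genes have an identifier without a symbol: 42 of the rises and 5 of the falls. ENSMMUG00000040771 was 1946, 619.8, 176.2, 3019, 34.7 and 587 CPM in AAV.miS1 replicates 1 to 6, against 2.16, 72.7, 12.4 and 0.663 CPM in vehicle replicates 1 to 4 (log2 fold change 7.04, SE 1.66, edgeR adjusted p = 0.0338). ENSMMUG00000044861 was 463, 122, 39.9, 902, 2.72 and 57.7 CPM with AAV.miS1 and 0.866, 0, 1.69 and 0 CPM with vehicle (8.17). Both were highest in replicate 4 and lowest in replicate 5, as JCHAIN was. ENSMMUG00000052254 fell to 4129 ± 2042 CPM with AAV.miS1 against 13283 ± 5910 CPM with vehicle (-1.69, SE 0.46, edgeR adjusted p = 0.0493), without overlap, and ENSMMUG00000053497 to 16.5 ± 3.53 against 28.2 ± 2.37 CPM (-0.75). The sources used here give these 4 identifiers no name.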

How the data were processed

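Total RNA of each sample was extracted with TRIzol, depleted of ribosomal RNA with human, mouse and rat probes and made into directional libraries, per the labels' protocols. STAR 2.6.0c and DESeq2 are named in the submitters' processing notes. For genome build and annotation, the sources used here give no name. The deposited values are whole read counts per gene, made by the authors before any normalization. The reverse-strand column was used, with the 34847 Ensembl macaque identifiers only, of which 24009 matched a symbol.

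Reads that the deposited tables assign to no gene, 63.6% to 72.0% of a library, stayed out of library sizes and tests. The AAV.miS1 and vehicle libraries were fitted together without covariates with edgeR 4.0.16 (quasi-likelihood F test, trimmed mean of M values, genes kept by filterByExpr with a minimum count of 10 and a minimum total of 15, prior count 0.125 for fold changes), in R 4.3.3. P values were adjusted by Benjamini-Hochberg over all genes tested, and a change was called at an adjusted p below 0.05. P values measure the spread between single libraries, each of its own animal. Single values were tested by exact permutation in SciPy 1.17.1. The code was checked on simulated counts.

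Alternatives were DESeq2 1.42.0, limma 3.58.1 voom with quality weights, other scalings, no filter, unstranded counts, covariates or subsets for the unmapped share and for the format of animal identifiers, and each library left out. The members, gene lists and tests were chosen with earlier results of these data known, so counts over a list are descriptions.

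Genes named were ATXN1, every called fall with a symbol, and, among genes with a symbol, the 16 called rises of smallest p outside every list with at least 5 CPM, the 8 most even and 8 most uneven rises of at least 10 CPM, the 8 largest gains and the 8 largest non-overlapping losses in CPM, up to 3 genes of smallest p in each list, and the 6 of smallest p on each side of the slope on vector reads. Genes named outside this rule were chosen after their values were seen: cell markers (GFAP, MAOB, VIM, TNC, SNAP25, NEFH, SLC17A6, PVALB, GABRA6, MBP, TTR, P2RY12), MX1, OAS2, IRF7, MKI67 and SOCS3 of replicate 2, and GDPD2, MATN2, SLC39A14 and PALD1. A few genes that the rule names are not reported here. Intervals of pooled ratios and of vector reads cover counting error only.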

Additional observations from a re-analysis of the deposited data

Results flagged for a closer look

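Of 260 sets of values (each measure named here, in each group) 32 had 1 library whose gap to its nearest neighbour took up most of the group's range, by Dixon's test at the 95% level, which flags about 1 set in 20 by chance. Many of the genes were named for their values in these same libraries, so the count of 32 cannot be weighed against that rate.

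AAV.miS1 replicate 2 was apart on the high side for 11 measures: vector reads (548 RPM), CDKN1A (499 CPM), EDA2R (23.7 CPM), GADD45A (46.8 CPM), EPHA2 (23.1 CPM), OAS2 (403 CPM), MX1 (398 CPM), IRF7 (81.1 CPM), SLC11A1 (222 CPM), and the granule cell genes FAT2 (431 CPM) and GABRA6 (42.7 CPM). Among these, OAS2, MX1, IRF7 and GABRA6 were named after their values were seen. EPHA2, GADD45A and FAT2 were named through the slope on vector reads, which were highest in replicate 2. AAV.miS1 replicate 1 was apart for ATXN1 (90.2 CPM), NPEPL1 (32.7 CPM) and MMP9 (684 CPM) on the high side and for ZNF287 (8.05 CPM) on the low side. TTR was apart in AAV.miS1 replicate 4 (103 CPM).

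Vehicle replicate 2, in which a single read is worth 10.4 CPM, was apart on the high side for CHIT1 (239 CPM), LYZ (114 CPM), JCHAIN (41.5 CPM), MAMU-DRA (280.4 CPM), CD74 (654 CPM), CTSB (789 CPM), RARRES1 (10.4 CPM), MKI67 (31.2 CPM) and ANLN (852 CPM). It was apart on the low side for PGAP6 (10.4 CPM) and CNTN4 (0 CPM). KCNJ10 was apart in vehicle replicate 4 (1601 CPM). Another 4 sets had a single vehicle library above 0: CHRNB4 (0.332 CPM) and CR1 (0.663 CPM) in replicate 4, and MMP9 (0.281 CPM) and GZMK (0.562 CPM) in replicate 3.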

How the results depend on the processing

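No paired analysis was possible because replicate numbers follow accession order and pair no animals. Against 1004 calls in edgeR, DESeq2 called 1793 genes and limma voom with quality weights 4187, and without vehicle replicate 2, a choice made after seeing the data, DESeq2 called 1993 and voom 3831. The unmapped set as a covariate left 148 calls. There were 123 calls within the libraries over 15% unmapped, and 0 within those under 15% (2458 at an unadjusted p below 0.05; this set holds 1 vehicle library, assumed to vary like the AAV.miS1 libraries), within identifiers of digits only (2218) and within identifiers with a letter (1271). Leaving out 1 library gave 0 to 2300 calls and 1364 to 2815 non-overlapping genes. The slope on vector reads had 0 calls under each alternative run. ATXN1 passed the threshold with upper-quartile scaling (-0.74), with voom (-0.74; -0.73 without vehicle replicate 2) and in 1 of the 10 fits that leave out a library, which ranged from -0.75 to -0.56.

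Of the genes named in the text, 5 changed direction under an alternative, and none of these was called. P2RY12 was below 0 with upper-quartile scaling (-0.072), unstranded counts (-0.037), within libraries over 15% unmapped (-0.0011), within identifiers of digits only (-0.13), without AAV.miS1 replicate 4 (-0.061) and without vehicle replicate 3 (-0.061), in a range of -0.061 to 0.12 over fits that leave out 1 library. SMAD9 was above 0 with the unmapped covariate (0.012), within libraries over 15% unmapped (0.13) and without AAV.miS1 replicate 2 (0.00060), the highest of a range that goes down to -0.42. SLC17A6 (0.011) and NEFH (0.17) were above 0 within libraries over 15% unmapped, and TTR ranged from -0.62 without AAV.miS1 replicate 4 to 2.91 without vehicle replicate 4. The cause of these shifts was not tested. The depth of vehicle replicate 2 limits genes under about 10.4 CPM there.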
